A study of Homo sapiens with 27 samples.

Results

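CCDC80, EMX2, LBH, AFF2, ENPP2 and MGP are 6 of the 57165 genes whose transcripts were counted by RNA-seq in breast cancer cells depleted of the transcription factor ZEB1. They were picked by symbol because their transcript abundance was lower in SUM159 cells with gRNAs against ZEB1 than in SUM159 cells with dCas9-KRAB and No gRNA. The SUM159 values against No gRNA are thus what chose them and are given as a description, with no test. All 6 genes were below No gRNA in every targeted SUM159 library. Against untransduced SUM159 cells of the same run, only CCDC80, EMX2 and AFF2 were lower without overlap in both targeted groups. Of all genes tested, 27.9% were lower without overlap for All gRNA and 26.9% for gRNA 4, and the share in both was not taken. The targeted libraries took part in the choice of the genes, so these comparisons carry no test. MGP was lower without overlap for gRNA 4 only, ENPP2 was higher in both and LBH was not lower in either. Within that run, a fall on loss of ZEB1 thus describes LBH and ENPP2 only with the vector control as the reference. In untransduced SUM159 cells of the other run, ENPP2 was instead above both targeted groups without overlap, and LBH was below both.

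The cells were SUM159 and MDA-MB-231, established lines from human triple negative breast cancer (TNBC), which lacks the estrogen, progesterone and HER2 receptors. dCas9-KRAB is a Cas9 that cannot cut DNA, fused to a domain that represses transcription, and it was delivered in a lentiviral vector together with its gRNAs. In SUM159, run 1 held 4 groups: untransduced wild type cells, No gRNA cells carrying the dCas9-KRAB vector without a guide, gRNA 4 cells carrying the vector with a single guide to the ZEB1 promoter, and All gRNA cells carrying 4 such guides. In MDA-MB-231 the groups were wild type, No gRNA and 2 targeted groups, all in run 2, together with a second set of SUM159 wild type libraries. Runs were taken from the prefixes of the data columns (B1 and B2), and what these prefixes stand for is not given. Only the titles of the second SUM159 wild type set name a run, as run 2. For the 6 targeted MDA-MB-231 libraries the sample titles and the data columns name opposite guide conditions. They are called set 1 (gRNA 4 in the titles) and set 2 (All gRNA in the titles) and were not assigned. Transduced cells of both lines had passed through puromycin selection, so vector, selection and culture cannot be told apart in a comparison of No gRNA with wild type. Each of the 9 groups had 3 libraries, described in the methods as individual clones. The lines were grown in different media, and for the transduced groups line and run coincide.

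ZEB1 is a zinc finger repressor that binds E-boxes and holds mesenchymal cells away from an epithelial state. The 6 genes have unrelated products. CCDC80 and MGP encode secreted proteins of the extracellular matrix, and matrix Gla protein (MGP) is a vitamin K-dependent inhibitor of calcification that also binds bone morphogenetic proteins (BMPs). ENPP2 encodes autotaxin, the secreted enzyme that makes lysophosphatidic acid (LPA), a lipid that acts on cell motility through the LPAR receptors. EMX2 is a homeobox transcription factor of the developing brain and urogenital tract. LBH is a transcription cofactor of limb bud and heart that is induced by WNT signaling in the basal mammary lineage, and AFF2 is a nuclear protein related to the scaffold of the super elongation complex.

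On GRCh38, with GENCODE release 44, CCDC80 (ENSG00000091986) spans chromosome 3 from 112596797 to 112649530 on the minus strand, and EMX2 (ENSG00000170370) spans chromosome 10 from 117542445 to 117549546 on the plus strand. LBH (ENSG00000213626) lies on chromosome 2 from 30231534 to 30323730, plus strand. AFF2 (ENSG00000155966) extends over chromosome X from 148500617 to 149000663, plus strand, the longest of the 6 at 500047 bp, with 21 exons in its canonical transcript. MGP (ENSG00000111341) lies on chromosome 12 from 14880864 to 14885857, minus strand. RefSeq promoter windows, 250 bases before to 50 bases from the listed start, were matched for 4 of the 6 genes, CCDC80, EMX2, LBH and AFF2. They are shown because genes that move together may share letters at their starts. Lower case is the window as listed and capitals mark CAGGTG or its reverse complement CACCTG, the E-box letters ZEB1 is known for, with no other motif searched. The windows, 5′ to 3′ on the gene's strand in GRCh38.p14, are chr3:112641094-112641393 (minus), chr10:117542496-117542795 (plus), chr2:30231284-30231583 (plus) and chrX:148718841-148719140 (plus).
CCDC80: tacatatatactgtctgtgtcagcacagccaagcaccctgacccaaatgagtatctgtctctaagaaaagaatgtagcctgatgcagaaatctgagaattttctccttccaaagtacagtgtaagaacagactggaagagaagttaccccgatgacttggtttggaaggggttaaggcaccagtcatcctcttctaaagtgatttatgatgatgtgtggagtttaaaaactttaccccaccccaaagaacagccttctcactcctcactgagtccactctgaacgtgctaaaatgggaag
EMX2: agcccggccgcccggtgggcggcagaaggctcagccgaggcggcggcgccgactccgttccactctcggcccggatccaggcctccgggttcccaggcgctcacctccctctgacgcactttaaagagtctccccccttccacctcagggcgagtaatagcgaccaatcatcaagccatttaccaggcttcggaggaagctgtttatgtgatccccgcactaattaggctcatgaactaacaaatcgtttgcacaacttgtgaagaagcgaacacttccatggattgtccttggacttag
LBH: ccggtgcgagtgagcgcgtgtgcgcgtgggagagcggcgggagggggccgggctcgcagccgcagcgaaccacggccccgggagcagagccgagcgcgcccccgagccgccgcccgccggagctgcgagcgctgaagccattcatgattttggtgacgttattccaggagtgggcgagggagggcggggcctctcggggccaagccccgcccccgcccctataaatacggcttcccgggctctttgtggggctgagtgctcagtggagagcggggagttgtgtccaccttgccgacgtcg
AFF2: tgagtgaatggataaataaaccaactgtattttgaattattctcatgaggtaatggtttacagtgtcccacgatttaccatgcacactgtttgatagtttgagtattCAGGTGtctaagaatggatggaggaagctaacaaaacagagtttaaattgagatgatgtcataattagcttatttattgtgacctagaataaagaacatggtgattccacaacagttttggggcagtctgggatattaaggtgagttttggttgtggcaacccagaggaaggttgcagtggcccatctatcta

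The E-box letters stood in 1 of these 4 windows, that of AFF2, as CAGGTG at -143 to -138 from the listed start. Of all 35116 windows of the same length, 7231 (20.6%) held them on either strand. The AFF2 window belongs to a start 218474 bp inside the gene, downstream of the start of its canonical transcript. The windows of EMX2 and LBH were rich in CG dinucleotides, with an observed to expected ratio of 0.846 and 0.957 beside a median of 0.579 over all windows, and G and C made up 58.0% and 71.3% of their bases. Those of CCDC80 and AFF2 were poor in them, with a ratio of 0.142 and 0.1 and 43.3% and 38.0% G and C. The 4 windows thus did not share a base composition.

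Library totals ran from 15461200 to 21473757 estimated counts. Abundances are given as CPM, counts relative to the library total after TMM scaling over all libraries, with group values as mean ± SD, n = 3. Because CPM was not divided by transcript length, levels are compared between groups and not between genes. ZEB1, the targeted gene, averaged 73.7 CPM in SUM159 No gRNA against 3.46 for gRNA 4 and 0.737 for All gRNA, and in MDA-MB-231 it averaged 110.1 CPM in No gRNA against 5.33 for set 1 and 4.69 for set 2. Of the markers of these lines, VIM, FN1 and CD44 were detected in every group and ESR1 had at most 3.27 counts in any library. The receptor genes ESR1, PGR and ERBB2 together summed to between 38.2 and 72.3 CPM by library. In SUM159, ESR1 and PGR were at or under 3 counts in every library, so nearly all of this sum was ERBB2. PGR exceeded 3 counts in some library of MDA-MB-231 No gRNA and set 2. TWIST1 was at or under 3 counts in every MDA-MB-231 library. Epithelial markers (9 genes) summed to 355.0 to 366.2 CPM in SUM159 No gRNA, 375.6 to 382.3 in wild type of run 1 and 446.1 to 482.7 in targeted cells, and EPCAM, CDH1, CLDN3 and CLDN7 were at or under 3 counts in both controls. Markers of other cell types (8 genes) summed to between 6.01 and 275.1 CPM by library, the highest in SUM159 wild type of run 2, and LUM was at or under 3 counts in every library. In SUM159 run 1 this sum was 46.1 to 63.5 CPM in wild type, 102.6 to 120.0 in No gRNA, 164.2 to 186.6 for gRNA 4 and 113.3 to 146.2 for All gRNA, and its part in the SUM159 differences was not tested.

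**Figure D1:**
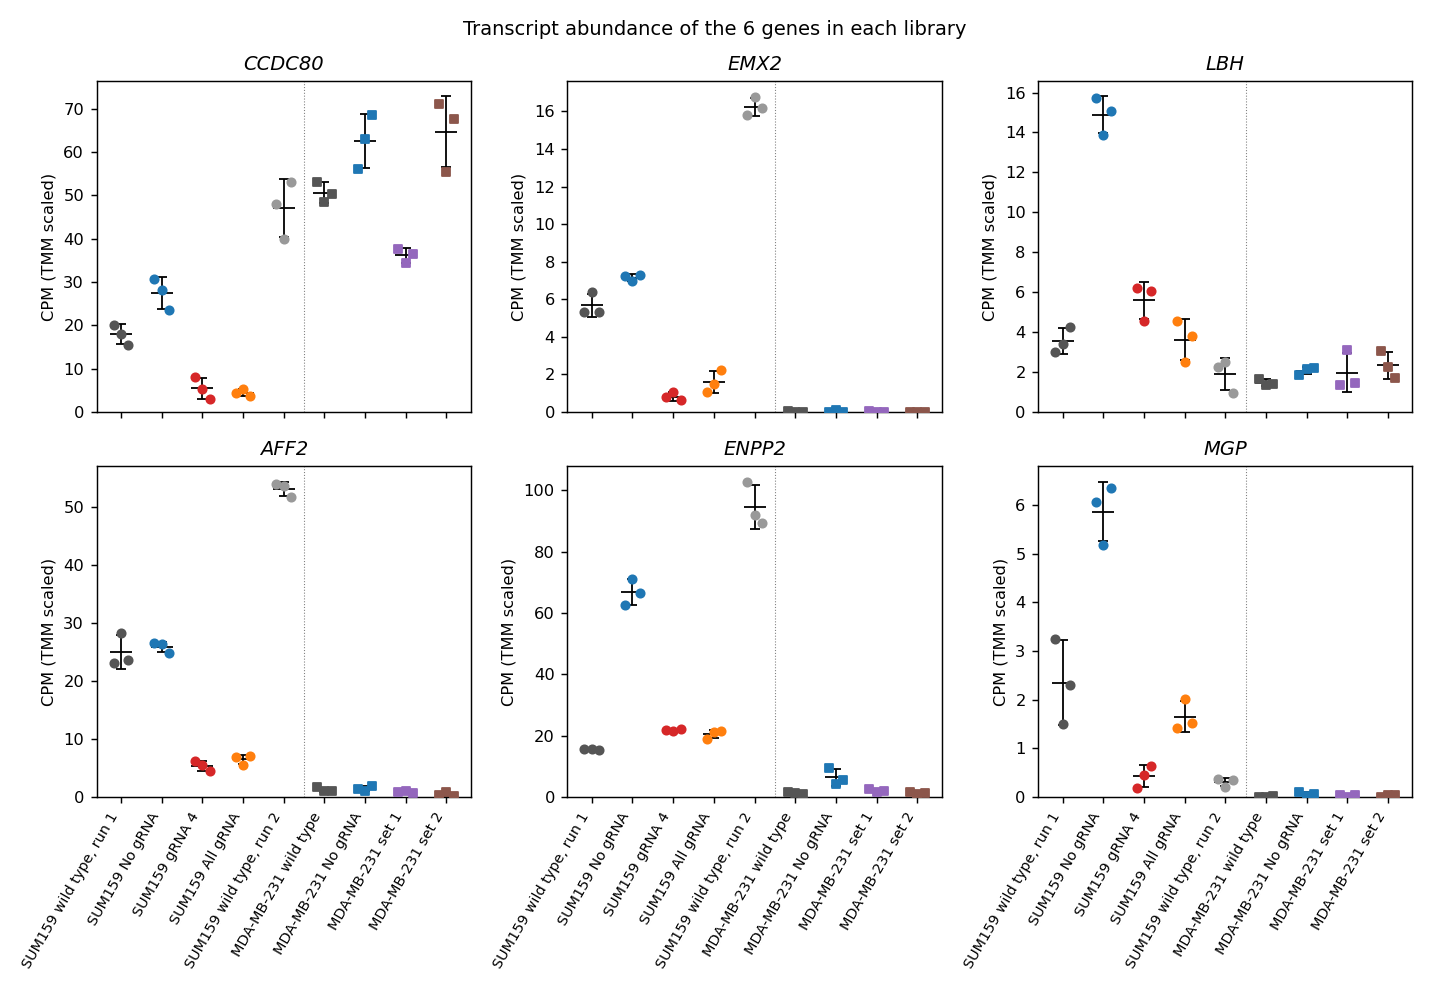
Each panel plots 1 of the 6 genes, with CPM on the y axis and the 9 groups on the x axis. Points are libraries (circles SUM159, squares MDA-MB-231), and the bars are the mean ± SD of 3 libraries. CCDC80, EMX2 and AFF2 lie below both SUM159 controls of run 1 in targeted cells. For ENPP2 and LBH the No gRNA libraries stand above wild type of run 1, and the targeted libraries lie near it. EMX2 and MGP are near 0 in MDA-MB-231.

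CCDC80, EMX2 and AFF2 formed a group that was lower in targeted SUM159 cells than in either control. CCDC80 had 30.7, 28.1 and 23.4 CPM in the No gRNA libraries, 8.02, 5.22 and 3.06 CPM with gRNA 4 and 4.41, 5.32 and 3.68 CPM with All gRNA. The targeted means were 19.8% and 16.3% of No gRNA, and the 2 targeted groups overlapped each other. Wild type libraries of run 1 had 20.2, 18.1 and 15.5 CPM, between the No gRNA and the targeted values without overlap. In bulk RNA, fewer cells that express a gene and less RNA per cell cannot be told apart, here and in the comparisons that follow.

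EMX2 was measured at 7.21, 6.96 and 7.29 CPM in No gRNA. It was at 0.766, 1.05 and 0.624 CPM with gRNA 4 and at 1.08, 1.49 and 2.22 CPM with All gRNA, which is 11.4% and 22.3% of the No gRNA mean. The highest gRNA 4 library and the lowest All gRNA library were next to each other, and wild type of run 1 (5.34, 6.39 and 5.30 CPM) lay just under No gRNA. EMX2OS, the antisense gene that overlaps EMX2, had at most 2.79 counts in any SUM159 library, and strand handling is not given in the sources used here.

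AFF2 had nearly the same level in both controls. It stood at 26.5, 26.4 and 24.9 CPM in No gRNA and at 23.2, 28.4 and 23.6 CPM in wild type of run 1. The gRNA 4 libraries had 6.17, 5.60 and 4.45 CPM and the All gRNA libraries 6.85, 5.58 and 7.04 CPM, 20.9% and 25.0% of No gRNA. No targeted library came near either control, and the 2 targeted groups overlapped.

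ENPP2 and LBH had a different pattern, in which the vector control itself stood far above wild type of run 1. ENPP2 (ENSG00000136960, chromosome 8 from 119557086 to 119673453, minus strand, 25 exons in the canonical transcript) had 62.7, 71.0 and 66.6 CPM in No gRNA but 15.7, 15.8 and 15.5 CPM in wild type of run 1, a ratio of 4.27. With gRNA 4 it was 22.0, 21.6 and 22.2 CPM and with All gRNA 18.9, 21.1 and 21.5 CPM. These are 32.8% and 30.7% of the No gRNA mean, yet 140% and 131% of the wild type mean, and every targeted library was above every wild type library.

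LBH had 15.7, 13.9 and 15.1 CPM in No gRNA and 3.02, 3.38 and 4.25 CPM in wild type of run 1, a ratio of 4.19. The gRNA 4 libraries had 6.19, 4.53 and 6.05 CPM, all above wild type, and the All gRNA libraries 4.53, 2.52 and 3.80 CPM, which overlapped wild type. The targeted means were 37.5% and 24.3% of No gRNA and 157% and 102% of wild type.

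MGP had unlike levels in the libraries of the 2 guide conditions. No gRNA libraries had 6.06, 5.18 and 6.35 CPM and wild type of run 1 had 3.24, 1.51 and 2.30 CPM. With gRNA 4 MGP was at 0.194, 0.450 and 0.636 CPM, below every wild type library, and with All gRNA at 1.41, 2.02 and 1.53 CPM, overlapping wild type. All gRNA was thus 3.87 times gRNA 4 without overlap, where the gRNA 4 libraries held only 3.37, 7.64 and 10.8 counts. Both groups took part in the choice of the genes, so this difference carries no test.

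On the log2 scale of the fit, the differences from No gRNA for All gRNA and gRNA 4 were -2.62 and -2.43 for CCDC80 (SE 0.265 and 0.259) and -2.20 and -3.13 for EMX2 (SE 0.225 and 0.276). They were -2.00 and -2.27 for AFF2, -1.70 and -1.61 for ENPP2, -2.07 and -1.43 for LBH and -1.83 and -3.84 for MGP. limma's TREAT is a test against a log2 fold change of 1. A gene is termed called when TREAT gave a Benjamini-Hochberg adjusted p under 0.05 over all genes tested. In each of the 2 comparisons 5 of the 6 genes were past that line, where 0.0660% of 15147 genes were called lower for All gRNA and 0.0924% for gRNA 4. Since this contrast chose the genes, nothing is read from those counts. LBH for gRNA 4 and MGP for All gRNA lay outside the line. The genes called lower for both guide conditions numbered 7, which were CCDC80, EMX2, AFF2, ENPP2, ZEB1, SPARC and ENSG00000260604.

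**Figure D2:**
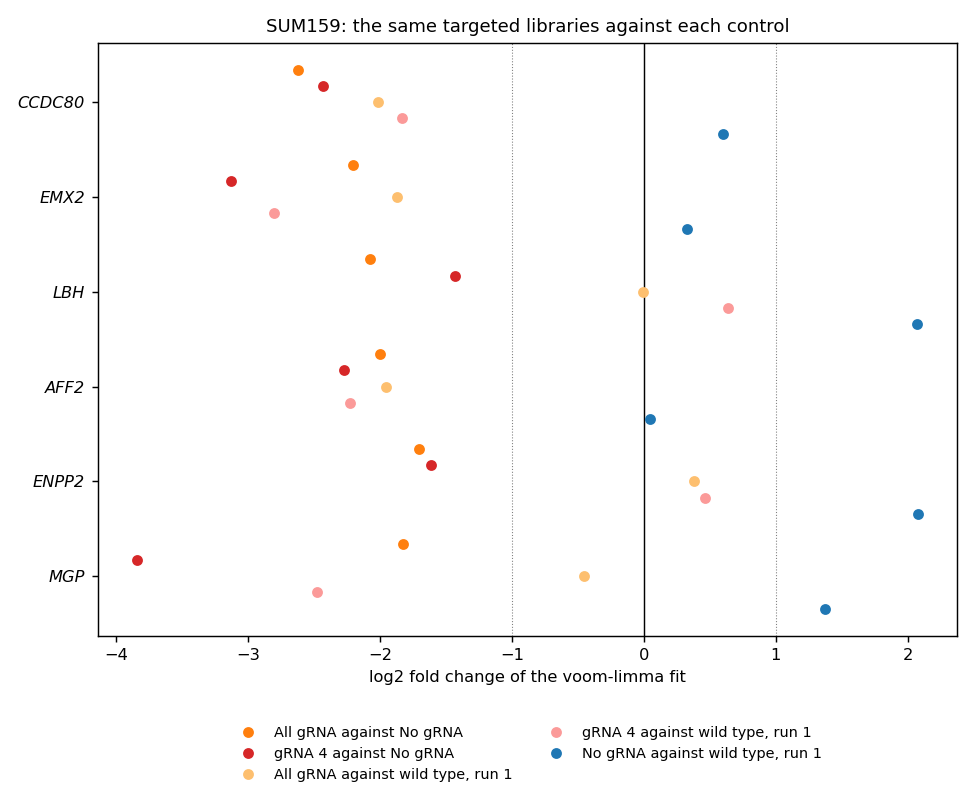
Fitted log2 fold changes on the x axis for each of the 6 genes on the y axis, with All gRNA and gRNA 4 set against No gRNA and against wild type of run 1, and No gRNA set against wild type. The dotted lines mark -1 and 1. For CCDC80, EMX2 and AFF2 the points of All gRNA and gRNA 4 stay left of -1 with either control. For ENPP2 these points move from -1.70 and -1.61 to 0.38 and 0.47 when wild type is the control.

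In No gRNA against wild type of run 1, 5 of the 6 genes had every No gRNA library above every wild type library, where 27.4% of all genes tested did so. The genes were chosen for being high in these same No gRNA libraries, so nothing is read from that count. AFF2 was the exception. Set against wild type, 3 of the 6 genes were lower without overlap for All gRNA (CCDC80, EMX2 and AFF2; 27.9% of all genes) and 4 for gRNA 4 (these and MGP; 26.9%). The log2 differences from wild type for All gRNA and gRNA 4 were -2.02 and -1.83 for CCDC80, -1.87 and -2.80 for EMX2, and -1.95 and -2.23 for AFF2. They were 0.00 and 0.64 for LBH, 0.38 and 0.47 for ENPP2, and -0.46 and -2.47 for MGP. The comparisons with wild type share the No gRNA or the targeted libraries with those that chose the genes and carry no test.

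MDA-MB-231 libraries took no part in the choice of the genes, and there the same comparisons were tested. EMX2 and MGP were essentially unexpressed, with at most 1.32 and 1.68 counts in any of the 12 libraries, and did not pass the filter, so 4 of the 6 genes were tested. ENPP2, the gene of autotaxin, had 9.44, 4.36 and 5.50 CPM in No gRNA and 1.67, 1.22 and 1.13 CPM in wild type. It had 2.50, 1.77 and 1.87 CPM in set 1 and 1.70, 0.981 and 1.32 CPM in set 2. The No gRNA libraries stood above all others of this line, with set 1 above wild type and set 2 overlapping it. Vector control and wild type had the same order as in SUM159 of run 1, at a much lower level. SUM159 wild type of run 2 instead lay above SUM159 No gRNA, with means of 94.6 and 66.8 CPM.

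The log2 fold change of ENPP2 was -1.57 in set 1 against No gRNA (SE 0.323) and -2.18 in set 2 (SE 0.367). TREAT did not call either (adjusted p = 1 and 0.0850), and limma's moderated test of the same fit against 0 gave adjusted p of 0.00264 and 4.006e-04. For No gRNA against wild type the log2 fold change was 2.13 (SE 0.361, TREAT adjusted p = 0.110, moderated adjusted p = 4.064e-04). Against wild type, set 1 differed by 0.56 (95% interval -0.41 to 1.53) and set 2 by -0.05 (-1.10 to 1.00), which passed neither test. Without No gRNA replicate 2, the lowest No gRNA library at 4.36 CPM, TREAT called ENPP2 in set 2 (-2.40, adjusted p = 0.0284) and in No gRNA against wild type (2.38, adjusted p = 0.0304).

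CCDC80 had 56.0, 63.0 and 68.5 CPM in MDA-MB-231 No gRNA and 53.1, 48.5 and 50.3 CPM in wild type. Set 1 had 37.7, 34.3 and 36.4 CPM, below every other MDA-MB-231 library, and set 2 had 71.1, 55.5 and 67.6 CPM, overlapping No gRNA. The log2 fold change against No gRNA was -0.78 in set 1 (SE 0.109, TREAT adjusted p = 1, moderated adjusted p = 1.825e-04) and 0.07 in set 2 (SE 0.0960, 95% interval -0.15 to 0.29). The difference between the sets, set 2 over set 1, was itself 0.85 (SE 0.109, TREAT adjusted p = 1, moderated adjusted p = 5.131e-05). ZEB1 did not pass either test between the same sets (log2 fold change -0.18, 95% interval -0.71 to 0.34).

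AFF2 was scarce in MDA-MB-231. It had 1.33, 1.01 and 1.88 CPM in No gRNA, 0.913, 1.11 and 0.639 CPM in set 1 and 0.441, 0.956 and 0.222 CPM in set 2. Set 2 lay below No gRNA without overlap (log2 fold change -1.46, SE 0.467, TREAT adjusted p = 1, moderated adjusted p = 0.0210), and set 1 overlapped it (-0.62, moderated adjusted p = 0.259). LBH had between 1.33 and 3.12 CPM in every MDA-MB-231 library, and its log2 fold changes of -0.16 in set 1 and 0.16 in set 2 had 95% intervals of -0.88 to 0.56 and -0.52 to 0.85. For LBH no difference was detectable at this depth.

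In counts, TREAT called 0 of the 4 genes lower in set 1, where 0.369% of 15721 genes were called lower, and 0 of 4 in set 2, where 2.40% were. The unadjusted TREAT p was under 0.05 for 0 genes in set 1 and for 1 (ENPP2) in set 2. The moderated test put 2 of 4 lower in set 1 (CCDC80 and ENPP2) and 2 of 4 in set 2 (AFF2 and ENPP2), beside 17.3% and 25.1% of all genes. edgeR's quasi-likelihood test against 0 also called 2 of 4 in each set, and glmTreat and DESeq2 against a log2 fold change of 1 called 0 in set 1 and 1 in set 2. In No gRNA against wild type TREAT called 0 of 4 higher (2.33% of all genes), with 1 at an unadjusted p under 0.05, and the moderated test called ENPP2 alone (26.2%). Between set 2 and set 1 TREAT called 0 of 4, with 0 at an unadjusted p under 0.05, and the moderated test called CCDC80 alone higher in set 2 (25.2%). The median log2 fold change of the 4 genes was -0.70 in both sets, beside -0.01 over all genes tested.

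**Figure D3:**
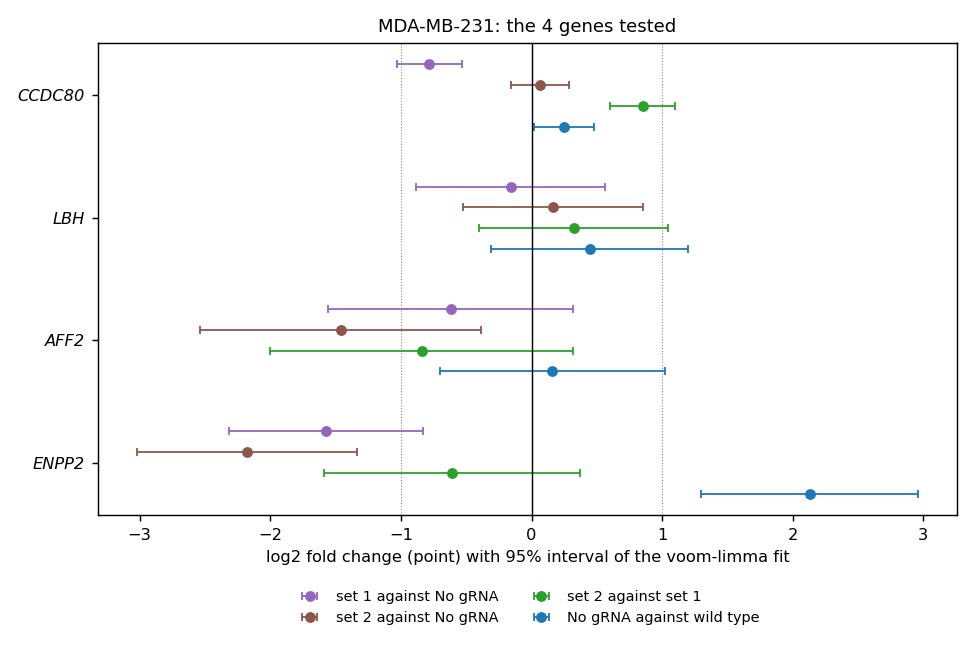
Log2 fold changes on the x axis with their 95% intervals from the fit of 12 MDA-MB-231 libraries, for the 4 genes that passed the filter. The dotted lines mark -1 and 1. ENPP2 is left of 0 in both sets and right of 0 for No gRNA against wild type, and CCDC80 is left of 0 in set 1 only.

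As the labels of the sets conflict, both were also taken as 1 targeted group, a choice made after the data were seen. ENPP2 was lower than every No gRNA library in 6 of 6 targeted libraries. The fitted log2 fold change was -1.88 (SE 0.291, TREAT adjusted p = 0.346, moderated adjusted p = 9.967e-04). An exact two-sided permutation test of the 6 targeted against the 3 No gRNA libraries on log2 CPM gave p = 0.0119, the smallest value this design allows, and 4 genes were tested in this way. The exact permutation p was 0.0595 for AFF2, 0.298 for CCDC80 and 0.988 for LBH.

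The untargeted levels in the 2 lines were compared in wild type cells of the same run. SUM159 had 15.8, 16.8 and 16.2 CPM of EMX2, where no MDA-MB-231 wild type library had more than 0.0395 CPM. AFF2 had 54.0, 53.7 and 51.7 CPM in SUM159 and 1.66, 1.01 and 0.973 CPM in MDA-MB-231. ENPP2 had 103, 91.9 and 89.3 CPM against 1.67, 1.22 and 1.13 CPM. TREAT called these 3 of 5 genes tested higher in SUM159, where 11.8% of all genes were. EMX2 was at least 93.7-fold higher (TREAT adjusted p = 4.895e-09), taking 3 counts as the floor of each MDA-MB-231 library. The log2 fold change was 5.43 for AFF2 (SE 0.265, TREAT adjusted p = 5.345e-09) and 6.10 for ENPP2 (SE 0.314, TREAT adjusted p = 7.270e-09).

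CCDC80 and LBH overlapped between the lines within run 2. Run 2 SUM159 wild type had 48.1, 39.8 and 53.1 CPM of CCDC80, overlapping MDA-MB-231 (log2 fold change -0.15, 95% interval -0.43 to 0.12), and 2.24, 2.47 and 0.967 CPM of LBH (0.23, -0.68 to 1.14). MGP did not pass the filter here. It had 0.372, 0.217 and 0.350 CPM in SUM159. The mean of these was at least 1.81-fold higher than in MDA-MB-231, with the floor of 3 counts taken for that line, and with SUM159 wild type of run 1 this bound was 13.5-fold. With wild type of run 1 in place of run 2, CCDC80 was called lower in SUM159 than in MDA-MB-231 (log2 fold change -1.501, TREAT adjusted p = 0.00833), so whether it was called depended on the run. LBH was then higher in every SUM159 library as well (1.25, TREAT adjusted p = 0.585, moderated adjusted p = 0.00163).

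The second set of SUM159 wild type libraries carries the same label as the first, but levels of these genes differed between the runs. ENPP2 rose from a mean of 15.7 ± 0.160 CPM in run 1 to 94.6 ± 7.18 CPM in run 2 (log2 fold change 2.58, SE 0.0814, TREAT adjusted p = 8.666e-09). EMX2 rose from 5.68 ± 0.619 to 16.2 ± 0.497 CPM (1.51, SE 0.132, TREAT adjusted p = 0.0189). MGP fell from 2.35 ± 0.869 to 0.313 ± 0.0843 CPM (-2.76, SE 0.477, TREAT adjusted p = 0.0240). These are 2 of 6 genes called higher and 1 of 6 called lower, beside 3.56% and 2.90% of all genes. Leaving out 1 wild type library at a time kept ENPP2 called in 6 of 6 fits. EMX2 was no longer called without run 2 replicate 2, run 1 replicate 1 or run 1 replicate 3 (limma TREAT adjusted p = 0.0580, 0.0917 and 0.0809). MGP was called in 1 of these 6 fits, that without run 1 replicate 2, and had adjusted p of 0.0531 to 0.135 in the others. Its run 2 libraries held only 5.89, 3.41 and 5.57 counts.

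The other 3 genes passed only the moderated test between runs. CCDC80 had a log2 fold change of 1.37 (TREAT adjusted p = 0.278), AFF2 of 1.08 and LBH of -0.99, with moderated adjusted p of 1.733e-05, 1.620e-07 and 0.0173. The moderated test thus put 4 of the 6 genes higher in run 2, where it put 28.9% of all genes higher, and LBH and MGP lower. COL1A1, a fibroblast collagen, moved with the run from 40.7 to 257.8 CPM, while COL1A2, LUM, CDH5, VWF and PTPRC were at or under 3 counts in all SUM159 libraries, and the summed level of the 8 markers of other cells went from 46.1 to 63.5 CPM in run 1 to between 271.6 and 275.1 CPM in run 2. The part of these in the result was not tested, and run, culture and passage cannot be told apart. ZEB1 itself had 79.6 ± 4.09 CPM in run 1 and 78.0 ± 1.48 CPM in run 2.

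**Figure D4:**
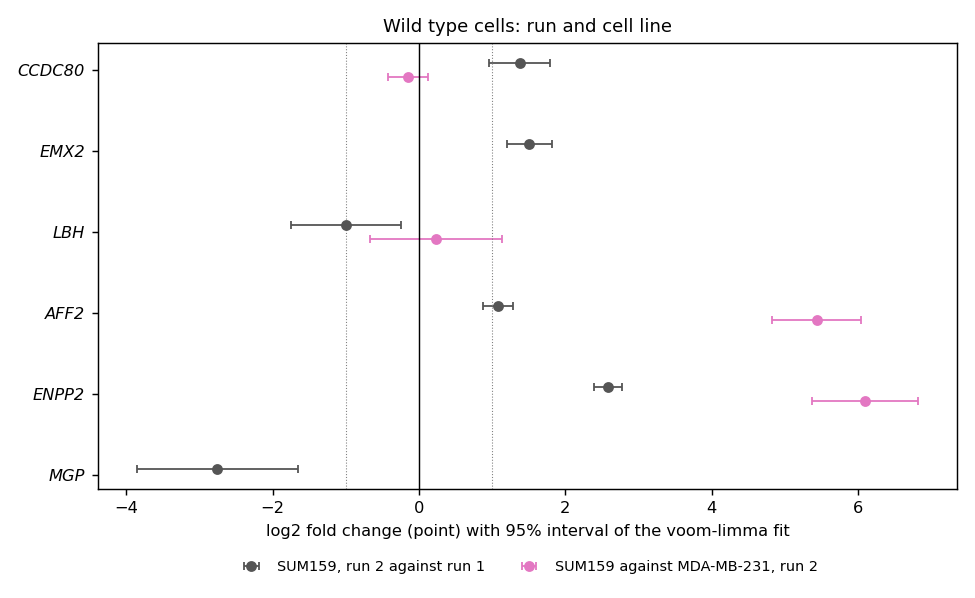
Log2 fold changes with 95% intervals for SUM159 wild type cells of run 2 against run 1 and for SUM159 against MDA-MB-231 wild type cells within run 2. EMX2 (a lower bound only) and MGP (not tested) have no point in the comparison of lines. ENPP2 has the largest rise between runs at 2.58 and MGP the largest fall at -2.76.

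Wild type levels of CCDC80, EMX2, AFF2 and ENPP2 in run 2 were above those of No gRNA in run 1, without overlap. The share of all genes that did so was not taken, and the No gRNA libraries took part in the choice. Nothing is read from this comparison, in which run and vector differ together. In order of group means, ENPP2 was highest in SUM159 wild type of run 2, then No gRNA, gRNA 4, All gRNA and wild type of run 1, then MDA-MB-231 No gRNA, set 1, wild type and set 2. Only the last pair overlapped, and gRNA 4 and All gRNA were nearly touching at 21.6 and 21.5 CPM. For AFF2 the order was SUM159 wild type of run 2, No gRNA, wild type of run 1, All gRNA and gRNA 4, ahead of every MDA-MB-231 group. The 2 run 1 controls overlapped, as did the 2 targeted groups and the neighbouring MDA-MB-231 groups.

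EMX2 had the same order as AFF2, with no overlap between neighbouring SUM159 groups. CCDC80 was highest in MDA-MB-231 set 2 and No gRNA, which overlapped, followed by wild type of that line and run 2 wild type of SUM159, which overlapped too. Set 1, SUM159 No gRNA and SUM159 wild type of run 1 came next, each apart from its neighbour, and the overlapping targeted SUM159 groups were lowest. For LBH only the first step, from SUM159 No gRNA to gRNA 4, was free of overlap. MGP stood highest in SUM159 No gRNA, then in wild type of run 1 and All gRNA, which overlapped, and then in gRNA 4 and wild type of run 2, which overlapped as well.

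Genes next to the 6 were examined as well. Within 100 kb of the 6 genes the table holds 32 other genes, of which 7 were tested in SUM159 and 8 in MDA-MB-231. TREAT called 0 of 7 for All gRNA and 0 of 7 for gRNA 4, with 0 at an unadjusted p under 0.05, and no log2 difference exceeded 0.49 and 0.53 in size. The moderated test called WBP11 lower for both and ARHGDIB higher for All gRNA. ARHGDIB had 14.0 CPM for All gRNA and 9.96 in No gRNA beside 34.2 in wild type of run 1, so its direction turned with the control. C12orf60, which overlaps MGP on the other strand, had log2 differences of -0.46 and -0.53, and how strand was handled is not given in the sources used here. In MDA-MB-231, TREAT called YPEL5, a neighbour of LBH, lower in set 2 (log2 fold change -1.36, SE 0.0674, adjusted p = 0.00477), at 44.01 CPM against 114.6 in No gRNA. Wild type had 39.1 CPM, below set 2 without overlap, so the direction turned with the control. In set 1 YPEL5 was instead higher than in No gRNA (0.48, TREAT adjusted p = 1, moderated adjusted p = 2.725e-05), at 159.6 CPM. TREAT called 0 of 8 in set 1, 0 had an unadjusted p under 0.05 and the moderated test called 3.

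The genes that work with each member were taken from 6 lists. In SUM159, TREAT called 0 of 64 list genes in either direction for All gRNA and for gRNA 4, where 0.330% and 0.297% of all genes were called higher and 0.0660% and 0.0924% lower. At an unadjusted TREAT p under 0.05 there were 2 and 3. The moderated test called 15 and 16, and nothing is read from these counts because its share over all genes was not taken. In MDA-MB-231, 4 of 73 were called in set 1 and 6 of 73 in set 2. These were 3 lower and 1 higher in set 1, where 0.369% of all genes were called lower and 1.10% higher, and 3 lower and 3 higher in set 2, where 2.40% were called lower and 1.74% higher.

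Around autotaxin, the list holds the LPA receptors, the lipid phosphate phosphatases that break LPA down, and the relatives of ENPP2. Of its 15 genes 9 were tested in SUM159, with a median log2 fold change of 0.02 for All gRNA and -0.06 for gRNA 4, beside 0.00 over all genes for both. LPAR3, a receptor for LPA, stood at 1.39 ± 0.599 CPM in No gRNA and 0.994 ± 0.234 CPM in wild type of run 1, below 5.35 ± 1.13 CPM for gRNA 4 and 4.55 ± 0.597 CPM for All gRNA. These differences from No gRNA (1.96 and 1.75 on the log2 scale) passed the moderated test (adjusted p = 0.00111 and 0.00282) and not TREAT (0.469 and 1). ENPP1, an enzyme of the same family that splits nucleotides, had log2 fold changes of -0.75 and -0.67 and passed the moderated test as well (0.00192 and 0.00394).

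In MDA-MB-231 the same list had 1 gene called higher and 1 called lower in each set, of 11 tested, with a median of 0.14 in set 1 and -0.55 in set 2. LPAR2, a further LPA receptor, rose in both. It averaged 3.03 ± 0.735 CPM in No gRNA, against 13.8 ± 1.66 CPM (set 1) and 11.9 ± 0.909 CPM (set 2) in targeted cells (log2 fold changes 2.21 and 2.02, TREAT adjusted p = 0.00277 and 0.00528). ENPP1 fell from 99.3 ± 2.08 to 32.1 ± 2.91 CPM in set 1 (-1.63, TREAT adjusted p = 3.526e-04), and its -1.21 in set 2 was not called (0.128). PLPP3, a lipid phosphate phosphatase, fell from 25.5 ± 1.39 to 6.57 ± 2.12 CPM in set 2 (-1.99, TREAT adjusted p = 0.00593), and its -1.71 in set 1 was not called (0.0769). LPAR1, the receptor with the most counts in this line, had 205.8 ± 3.35 CPM in No gRNA and log2 fold changes of -0.60 and -0.55, which TREAT did not call.

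**Figure D5:**
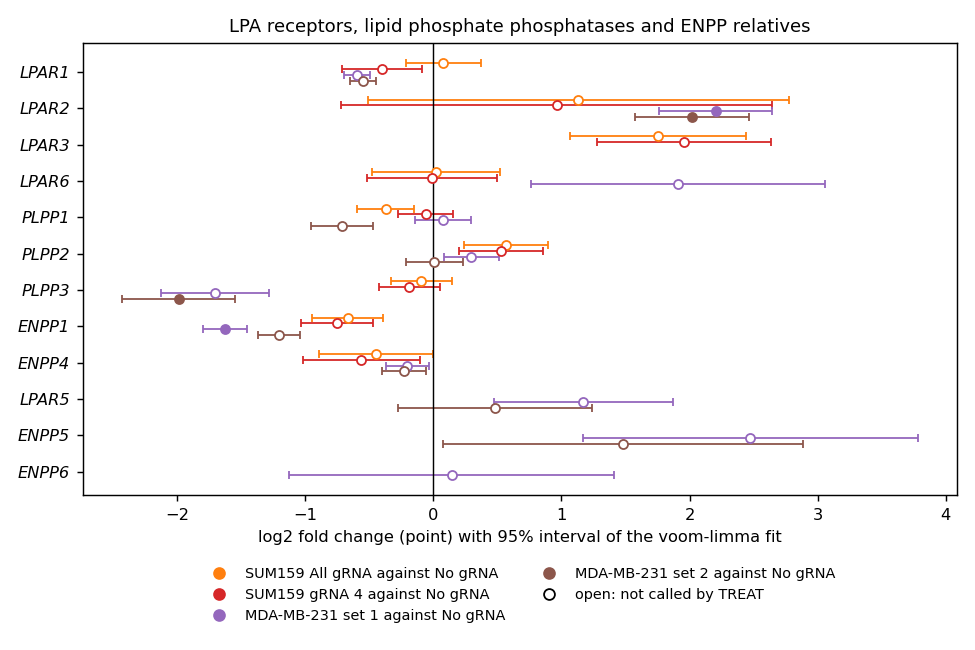
Log2 fold changes against No gRNA with 95% intervals for the genes of the autotaxin list, leaving out values where either group was at or under 3 counts in every library. Filled points were called by TREAT. LPAR2 is filled in both MDA-MB-231 sets, ENPP1 in set 1 and PLPP3 in set 2, no point is filled in SUM159, and LPAR3 lies at 1.75 and 1.96 in SUM159 there.

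Around MGP, the list of Gla proteins, the vitamin K cycle and BMP signaling had 0 of 15 called in SUM159, with medians of -0.08 and -0.03. PROS1, another vitamin K-dependent protein, had 78.0 CPM in No gRNA, 32.8 CPM in wild type of run 1 and 37.5 and 37.9 CPM in gRNA 4 and All gRNA (log2 fold changes -1.07 and -1.05, moderated adjusted p = 2.831e-05 and 2.947e-05, TREAT adjusted p = 1 for both). In MDA-MB-231, where MGP itself is near 0, 2 of 20 were called lower in set 1 and 2 lower and 1 higher in set 2, with medians of -0.27 and -0.33. ID1 and ID3, immediate targets of BMP signaling, fell in set 1 (-1.42 and -1.54, TREAT adjusted p = 0.0235 and 0.0428), and ID3 had -1.39 in set 2 (0.0790). In SUM159 ID1 was instead higher, at 218.9 CPM for gRNA 4 and 193.9 for All gRNA against 134.4 in No gRNA. ID3 had 60.4 and 51.2 CPM there against 51.0, and TREAT called neither gene in SUM159. In set 2 the ligand BMP2 and the activin and BMP antagonist FST fell (-1.81 and -1.62, adjusted p = 0.00450 and 1.313e-04), and the BMP antagonist NOG rose (1.41, adjusted p = 0.00541). Wild type cells had 2.33 CPM of BMP2 beside 11.4 in No gRNA and 3.18 in set 2, so set 2 was above wild type without overlap and the direction for BMP2 turned with the control.

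The lists of the remaining members held few called genes. Of the AFF family and the super elongation complex, 0 of 11 were called in SUM159 and 1 of 13 in MDA-MB-231, ELL3, which rose in set 2 from 0.699 to 4.63 CPM (log2 fold change 2.78, TREAT adjusted p = 0.00294). Among EMX family and homeobox factors 0 of 9 were called in SUM159 and 0 of 10 in either MDA-MB-231 set. For the WNT targets and the basal factor TP63 the counts were 0 of 11 and 0 of 10, and for the relatives of CCDC80 and the adipogenic factors 0 of 9 in both lines. The medians of these 4 lists lay between -0.10 and 0.11 in SUM159, against 0.00 over all genes.

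The genes most like each member in log2 CPM over all 27 libraries were found by Pearson's r among 17318 others, as a description. The libraries fall into 9 groups of 2 lines, so they are not independent points. AFF2 had EMX2 itself as its nearest gene (r = 0.967), followed by CBX5 and AHRR. EMX2 was nearest to RXFP1 (0.978), OR2W3 and AHRR, and CCDC80 to PPM1H (0.934), LYPD6 and FADS1. ENPP2 was nearest to OSBPL5 (0.965), MXD4 and IP6K3, MGP to VCAM1 (0.949), PRMT8 and WAC-AS1, and LBH, with the lowest values, to SCARA5 (0.845), PARP14 and LINC02997. Over the 12 SUM159 libraries of run 1, AFF2 and EMX2 (r = 0.966), CCDC80 and AFF2 (0.946) and LBH and ENPP2 (0.927) were the closest pairs of members. Most of these libraries chose the genes for falling together, so nothing is read from those values. Over all 27 libraries, r of CCDC80 with each other member was negative, from -0.316 for AFF2 to -0.563 for MGP. Every other pair of members had a positive r there.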

How the data were processed

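RNA from 27 libraries, sequenced as single-end reads of 50 bp, was quantified by the authors with Salmon on GRCh38 and summed to genes with tximport. The authors deposited the result as estimated counts per gene, which need not be whole and were not normalised. The Salmon version, the transcript annotation and the strand setting are not given in the sources used here.

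Counts were scaled by TMM and fitted by voom and limma (R 4.3.3, limma 3.58.1, edgeR 4.0.16), adding 0.5 to each count, with 1 fit per line (12 libraries each) and 15 libraries for the comparison of wild type cells between runs and the run 2 fit. filterByExpr, at its minimum count of 10, left 15147 genes in SUM159, 15721 in MDA-MB-231, 16473 in run 2 and 15460 across the SUM159 libraries. The main test was limma's TREAT, which asks for a log2 fold change beyond 1, and a gene was called when its adjusted p (Benjamini-Hochberg, over every gene kept) was under 0.05. limma's moderated test against 0, edgeR's quasi-likelihood test and glmTreat, and DESeq2 (1.42.0), the last 3 on rounded counts, were alternatives, with other scalings, filters, controls and libraries left out. The steps were tested on simulated data with known fold changes. Intervals are 95% intervals of the fit. A count of 3 or fewer was the floor.

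Samples were grouped by their labels, except that the 6 targeted MDA-MB-231 libraries carry opposite guide conditions in titles and columns and were kept as 2 unnamed sets. All columns were used. P-values measure only the spread between these libraries. Replicate numbers did not pair libraries, since no correlation of deviations exceeded 0.1 (-0.0386 to 0.0489).

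The 6 genes and the gene lists were chosen with earlier results of these data known. The text names the 6 genes, ZEB1, list genes or neighbours within 100 kb that TREAT called, genes overlapping a member, the 3 genes most like each member, and genes called lower for both SUM159 guide conditions. LPAR1, LPAR3, PROS1, WBP11, ARHGDIB and COL1A1, and the values of ENPP1, ID1 and ID3 in SUM159, were chosen after their values were seen. Positions of genes are from GENCODE release 44 and promoter windows from RefSeq (GRCh38.p14).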

Additional observations from a re-analysis of the deposited data

How the results depend on the processing

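Tests against 0 gave more calls than TREAT at a log2 fold change of 1. For the 4 genes that could be tested in MDA-MB-231, the quasi-likelihood test of edgeR and the moderated test of limma each called 2 in set 1 and 2 in set 2, where TREAT called 0, and 1 each between the sets. In No gRNA against wild type they called 2 and 1, and edgeR's glmTreat and DESeq2 at a log2 fold change of 1 called 1 there and 1 in set 2. Between the SUM159 runs both tests against 0 called 6 genes, where TREAT called 3. The related lists and neighbours were instead summed over the 4 comparisons of targeted groups with No gRNA. There the moderated test made 106 list calls, where TREAT made 10 (glmTreat 18), and 10 neighbour calls, where TREAT made 1. The share over all genes was not taken for these sums, so nothing is read from them. Replicate numbers did not pair the libraries. The replicate block called 1 gene, ENPP2, in set 2 and 1, ENPP2, in No gRNA against wild type, where the fit without it called 0, and changed no other call of the 6 genes.

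With wild type in place of No gRNA, 3 of 6 genes in SUM159 were below -1 on the log2 scale in both guide conditions, against 6, and signs reversed for ENPP2 (0.38 for All gRNA, 0.47 for gRNA 4, 0.56 in MDA-MB-231 set 1) and LBH (0.64 for gRNA 4, 0.29 in set 1). Summed over the targeted groups of both lines, list calls rose to 20 and neighbour calls to 2. Wild type of run 1 in the comparison of lines, fitted with all 27 libraries, gave 5 calls against 3. With both sets as 1 group, chosen after seeing the data, LBH moved to 0.0008 and CCDC80 in set 2 to -0.35. Leaving out 1 library at a time gave 0 to 1 called gene in set 2, 0 to 1 in No gRNA against wild type and 1 to 3 between the SUM159 runs. It turned small values across 0, namely LBH in set 1 (-0.56 to 0.0637), in set 2 (-0.0450 to 0.37) and between the lines (-0.0093 to 0.65), CCDC80 in set 2 (-0.0085 to 0.18) and AFF2 in No gRNA against wild type (-0.0683 to 0.39). EMX2 between runs was not called by DESeq2 (adjusted p = 0.0539) and MGP not with only the 2 groups compared (limma TREAT adjusted p = 0.0518). The cause of these changes was not tested. Depth limits EMX2 and MGP in MDA-MB-231, at no more than 1.68 counts a library, and LBH and AFF2 there. It also limits MGP in SUM159 gRNA 4 and in SUM159 wild type of run 2.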
